A study of Mus musculus with 7 samples.

Results

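Imprinted growth genes are a group whose expression depends on the parent that passed on the allele, and 10 of them (H19, Igf2, Dlk1, Meg3, Plagl1, Grb10, Peg3, Mest, Ndn and Igf2r) were followed in stem cells of the mouse fetal liver. Every probe set annotated to one of these genes alone was taken, which gave 27 of 22626 probe sets and covered 9 of the 10 genes. H19 had none, because its probe set is also annotated to Mir675, a microRNA that lies within H19. Ndn had 8 such probe sets, Meg3 5, Grb10 and Peg3 3 each, Igf2, Plagl1 and Igf2r 2 each, and Dlk1 and Mest 1 each. Probe sets of one gene share a transcript and are not replicates.

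The arrays came from haematopoietic stem cells of embryonic day 14.5, sorted and then sorted again as lineage-negative, Sca-1+, c-Kit+, CD150+ cells. Of 7 arrays, 3 held cells of TFIIAα-βnc/nc embryos (TFIIA nc/nc), which are homozygous for an uncleavable form of the large TFIIA subunit, and 4 held cells of wild-type embryos. All embryos came from crosses of TFIIAα-βnc/+ parents, so the allele was carried through the germ line. The TFIIA nc/nc samples pooled 2, 2 and 4 littermates, the wild-type samples 3 and 4 pooled 4 and 3 littermates, and wild-type samples 1 and 2 were single embryos (1 embryo each). The labels name the samples biological replicates without saying whether the genotypes shared litters, and the strain is not given in the sources used here.

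Genomic imprinting silences one parental copy of a gene through DNA methylation laid down in the germ line. Paternally expressed members such as Igf2, Dlk1, Mest and Peg3 mostly favour fetal growth, while maternally expressed members such as H19, Grb10 and Igf2r mostly restrain it. Plagl1, a zinc finger transcription factor, has been described as a regulator of several of the others. H19 and Igf2 are neighbours with 0 protein-coding genes between them in the RefSeq order of GRCm38.p6, and so are Dlk1 and Meg3. In haematopoietic stem cells the H19 and Igf2 locus and the Dlk1 and Meg3 locus are known for a part in quiescence and in fetal stem cell maintenance. TFIIA acts with the TATA-binding protein on core promoters, and the series asked how the stem cell transcriptome differs when TFIIAα-β cannot be cut by Taspase1.

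The promoters below belong to the members that stood out in these arrays, Mest and Plagl1 by their range and Meg3 and Peg3 by the smallest p between the genotypes. Each is the 250 bases before a RefSeq start (one of several for Mest and Meg3) in GRCm38.p6, written 5′ to 3′ on the strand of the gene, at chr6:30737800-30738049 for Mest (plus strand), chr10:13090582-13090831 for Plagl1 (plus strand), chr7:6730420-6730669 for Peg3 (minus strand) and chr12:109540746-109540995 for Meg3 (plus strand). Capitals mark TATAAA, the core of the TATA box, on either strand, and GGGGCCCC, a motif described for Plagl1 that is its own reverse complement.
Mest: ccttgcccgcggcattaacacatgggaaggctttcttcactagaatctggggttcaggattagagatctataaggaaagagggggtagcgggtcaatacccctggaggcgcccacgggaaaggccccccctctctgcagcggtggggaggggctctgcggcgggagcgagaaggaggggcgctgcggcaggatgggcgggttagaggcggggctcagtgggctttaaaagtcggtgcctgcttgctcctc
Plagl1: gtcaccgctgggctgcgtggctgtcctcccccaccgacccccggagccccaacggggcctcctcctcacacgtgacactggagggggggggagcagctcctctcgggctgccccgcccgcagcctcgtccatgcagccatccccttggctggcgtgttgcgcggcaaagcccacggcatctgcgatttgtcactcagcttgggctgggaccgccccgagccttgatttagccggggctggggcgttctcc
Peg3: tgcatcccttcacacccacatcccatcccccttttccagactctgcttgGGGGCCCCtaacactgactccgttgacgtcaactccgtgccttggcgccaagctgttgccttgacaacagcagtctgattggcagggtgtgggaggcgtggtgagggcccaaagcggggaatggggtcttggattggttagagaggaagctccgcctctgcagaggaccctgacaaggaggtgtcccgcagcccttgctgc
Meg3: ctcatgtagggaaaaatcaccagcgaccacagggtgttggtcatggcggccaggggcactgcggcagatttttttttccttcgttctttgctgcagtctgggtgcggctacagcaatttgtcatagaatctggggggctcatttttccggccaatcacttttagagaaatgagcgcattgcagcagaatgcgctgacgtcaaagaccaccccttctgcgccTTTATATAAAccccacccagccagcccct

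In the window shown for Meg3, TATAAA lay 25 to 20 bases before the start on the strand of the gene, and overlapped a match on the opposite strand at 29 to 24 bases. RefSeq gave 16 windows of 300 bases (250 before and 50 after a start) for the 9 measured members, and none for H19. TATAAA was in 1 of these 16, against 13.6% of all 32851 windows, and GGGGCCCC was in 1 of 16, that of Peg3, 201 to 194 bases before its start, against 1.08% of all windows. The member windows had a median GC content of 60.3% and a median of 13 CpG pairs, compared with 52.7% and 7 over all windows. The matches are descriptions of these letters, not of binding.

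A microRNA, miR-335, lies within the interval of Mest. Its 5p strand (chr6:30741314-30741336 in GRCm38.p6, plus strand) is shown because Mest had the widest range of the members over the arrays, with the seed (bases 2 to 8) in capitals. The arrays do not measure the mature microRNA.
miR-335-5p: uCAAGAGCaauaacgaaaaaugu

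Between the genotypes, none of the 27 member probe sets passed the test (limma over all 22626 probe sets, Benjamini-Hochberg adjusted p 0.984 to 0.988). Over all probe sets 1 passed, 0.00442% (0.00807% of genes, taking the brightest probe set of each), a Galc probe set that was lower in TFIIA nc/nc. All differences subtract the wild-type mean from that of TFIIA nc/nc, in log2 units. An unadjusted limma p under 0.05 was reached by 3 members, 1 higher (Peg3) and 2 lower (Meg3), against 4% of all probe sets, of which 1.91% were higher and 2.09% lower. The median difference was −0.05 over the members, 12 higher and 15 lower, and −0.01 over all probe sets. The groups of arrays did not overlap for 1 member, a Meg3 probe set, against 5.65% of all probe sets (2.85% with TFIIA nc/nc above and 2.81% below). With so few arrays the exact permutation test over the 35 assignments cannot give a p below 0.0286.

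**Figure D1:**
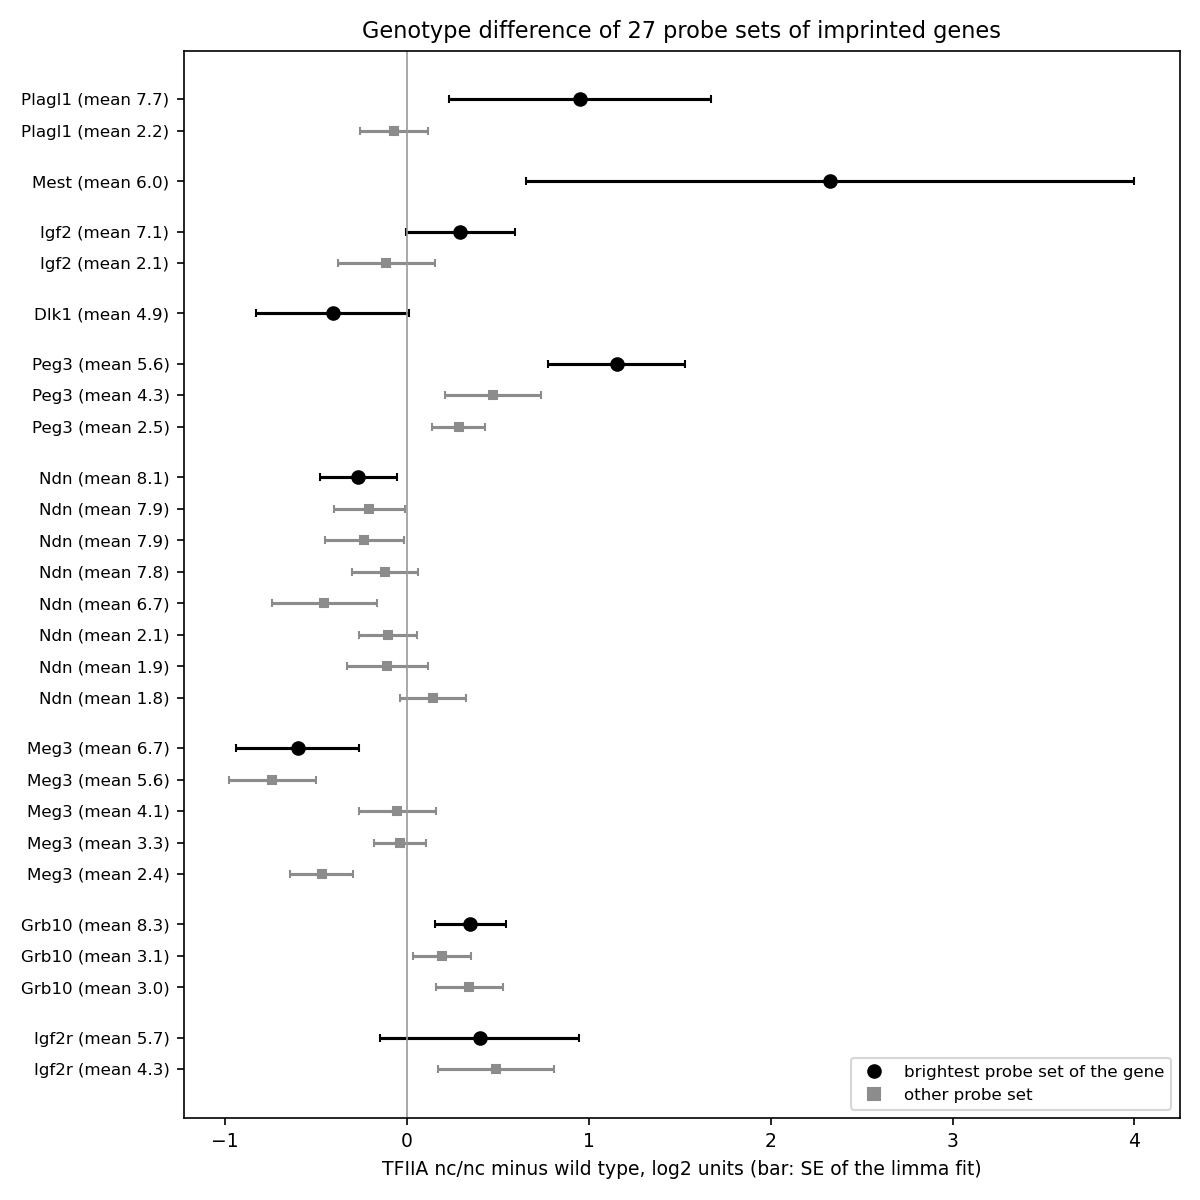
Difference between TFIIA nc/nc (3 arrays) and wild type (4 arrays) for 27 probe sets of imprinted genes, in log2 units, with the standard error of the limma fit as bars and the mean log2 level over 7 arrays beside each name. The estimates run from −0.74 for a Meg3 probe set to 2.33 for Mest, which has by far the widest bar.

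The arrays differed in transcripts that serve as markers of other cell types. Lyve1, the hyaluronan receptor of liver sinusoidal endothelium, was bright in wild-type replicate 1 (9.73) and in the TFIIA nc/nc replicates 1 (9.60) and 2 (9.83). It read between 2.78 and 3.65 elsewhere. Without Lyve1 itself, 11 of 14 measured endothelial genes were wholly higher in those 3 arrays, and their mean was 6.03 to 6.51 there and 3.41 to 3.64 in the others. Of 13 hepatoblast genes 7 were wholly higher there, 2 of them (Alb and Afp) by at least 1 log2 unit, and 1 (Krt18) was wholly lower. Alb read 6.12 to 7.44 against 1.84 to 2.74, and the mean of the list was 3.93 to 4.61 against 3.12 to 3.33. The mean of 12 mesenchymal genes overlapped, at 2.97 to 3.36 against 2.80 to 3.32, with 1 gene (Reln) wholly higher in the 3 arrays and 1 (Postn) wholly lower. Stem cell genes (10, of which 5 were wholly lower in the 3 arrays and 5 overlapped) averaged 6.76 to 6.93 there and 7.11 to 7.31 in the others. Kit and Slamf1, which encode c-Kit and CD150 of the sort, read 7.50 to 9.06 and 6.12 to 6.92 over the 7 arrays. The means of 11 macrophage and 8 erythroid genes overlapped, at 3.99 to 4.83 against 3.04 to 5.10 and at 4.04 to 4.66 against 3.85 to 4.65. Among the macrophage genes 2 were wholly higher in the 3 arrays and 1 (Cd68) wholly lower. Of these, Mrc1 read 8.62 to 9.03 against 3.19 to 4.45. Among the erythroid genes 2 were wholly higher and 0 wholly lower. Of all genes 5.55% were wholly higher in the 3 arrays, 0.888% by at least 1 log2 unit, and 4.87% wholly lower. Since this split of the arrays was made from measured values, it is described below without a test. Whether these transcripts came from other cells or from the sorted cells themselves was not tested. Their part in any genotype difference was not tested except where values with and without those arrays are given. In sorted bulk samples fewer cells of a type and less RNA per cell cannot be told apart.

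Mest, an enzyme of the alpha/beta hydrolase family expressed from the paternal allele, followed this split. Its log2 level was 8.97 in wild-type replicate 1 and, for TFIIA nc/nc, 8.98 in replicate 1 and 9.52 in replicate 2. It was 3.42 in TFIIA nc/nc replicate 3 and 3.34, 4.00 and 3.60 in wild-type replicates 2, 3 and 4, close to the array medians of 3.69 to 3.82. The lowest of the 3 high arrays stood 4.97 log2 units above the highest of the other 4, a 31.3-fold step in signal. The step contained both genotypes on each side, and the genotype groups overlapped.

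The difference of Mest between the genotypes was 2.33 (SE 1.67; limma, Benjamini-Hochberg adjusted p = 0.984), from 7.30 ± 3.37 (SD, n = 3) against 4.98 ± 2.67 (SD, n = 4). Among the 3 arrays with high Lyve1 it was 0.28, among the 4 with low Lyve1, which hold a single TFIIA nc/nc array, −0.22, and in a fit adjusted for the endothelial mean (a covariate over 15 genes, Lyve1 included) 0.02 (SE 0.20). Leaving out one array at a time gave 1.22 to 4.27, the lowest without TFIIA nc/nc replicate 2, the highest without TFIIA nc/nc replicate 3, and 3.66 without wild-type replicate 1.

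Plagl1 followed the same split of the arrays at a smaller step. It read 8.78 in wild-type replicate 1 and, for TFIIA nc/nc, 8.92 in replicate 1 and 9.27 in replicate 2, whereas TFIIA nc/nc replicate 3 read 6.44 and wild-type replicates 2, 3 and 4 read 6.55, 6.71 and 6.99. All 4 lower values lay well above the array medians, so this probe set gave signal in arrays with low Lyve1 too. Whether that signal came from Plagl1 alone was not tested, and no detection calls were used. The step between the sets was 1.79 log2 units, or 3.47-fold. The genotype difference was 0.95 (SE 0.72; limma, Benjamini-Hochberg adjusted p = 0.984). Adjusted for the endothelial mean it was −0.01, and it was 0.31 among the arrays with high Lyve1 and −0.31 among those with low Lyve1. Leaving out one array at a time gave 0.42 (without TFIIA nc/nc replicate 2) to 1.84 (without TFIIA nc/nc replicate 3). The other Plagl1 probe set was dim, at 1.98 to 2.66, and had no such step.

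Of the 27 member probe sets, 5 were wholly higher in the 3 arrays with high Lyve1, from Mest, Plagl1, Peg3 and Igf2r, against 4.9% of all probe sets, and 2 of them (Mest and Plagl1) by at least 1 log2 unit, against 0.672%. Another 4, all of Ndn, were wholly lower there, against 4.33%. These shares describe 7 arrays and give no chance level. Over the 7 arrays Mest and Plagl1 had a Pearson r of 0.991, with points that fall into these 2 sets.

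**Figure D2:**
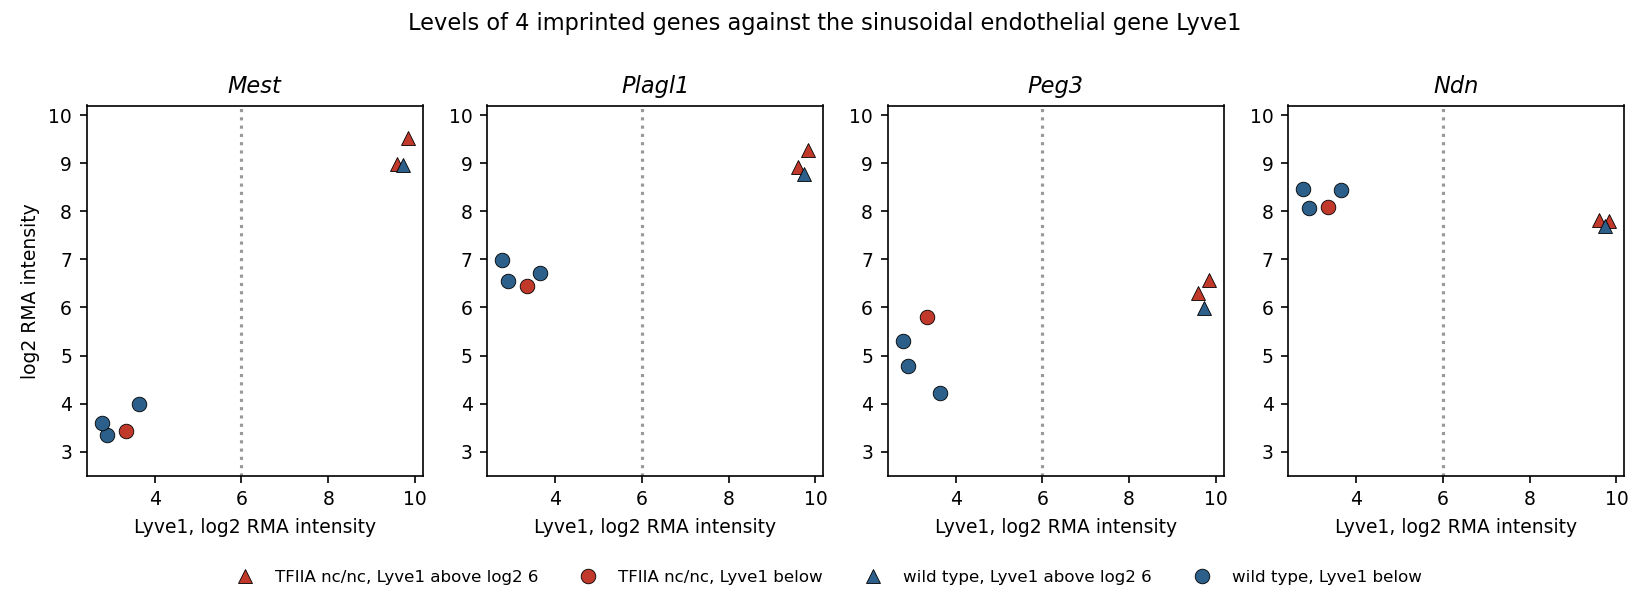
Log2 levels of Mest, Plagl1, Peg3 and Ndn (y axis) against Lyve1 (x axis) on the 7 arrays, red for TFIIA nc/nc and blue for wild type, with the dotted line at log2 6. Mest and Plagl1 jump by 4.97 and 1.79 log2 units between the sets, the 3 arrays at high Lyve1 barely exceed the others for Peg3, and Ndn is slightly lower in them.

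The genes nearest to these members in pattern were named from 252 other genes that spanned at least 2 log2 units. Nearest to Mest were Nid1, a basement membrane protein (r = 0.997), Lyve1 (0.997) and Nrp1, a co-receptor for VEGF (0.997). Nearest to Plagl1 were Cemip2 (r = 0.992), Nid1 (0.991) and Aplnr, the apelin receptor (0.989). All of these read higher in the same 3 arrays, for instance Nid1 at 7.11 to 7.48 against 2.37 to 3.33. The correlations share the 7 arrays and the 2 sets into which they fall, and they are given as descriptions.

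Igf2, the paternally expressed fetal growth factor, was well above the array medians on every array. Its brighter probe set read 7.18, 7.91 and 6.68 in the TFIIA nc/nc arrays and 7.21, 6.63, 7.34 and 6.67 in the wild-type arrays, so the groups overlapped and so did the arrays of high and low Lyve1. The difference was 0.29 (SE 0.30; limma, Benjamini-Hochberg adjusted p = 0.984). It was −0.03 without TFIIA nc/nc replicate 2, which had the highest value, and 0.58 without TFIIA nc/nc replicate 3. Among the arrays with high Lyve1 it was 0.33, and among those with low Lyve1 −0.20. The dim probe set of Igf2 read 1.84 to 2.19 on all arrays but wild-type replicate 1, which read 2.97.

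Igf2r, the maternally expressed receptor that carries IGF2 to the lysosome, had a different order of arrays. Its brighter probe set read 6.19, 6.27 and 5.18 in TFIIA nc/nc and 6.33, 6.55, 4.59 and 4.45 in wild type. The high values were thus those of the 3 arrays with high Lyve1 and of wild-type replicate 2, a single embryo. The difference was 0.40 (SE 0.55; limma, Benjamini-Hochberg adjusted p = 0.984). Without the single-embryo samples, wild-type replicates 1 and 2, it was 1.36 (limma, Benjamini-Hochberg adjusted p = 0.218), among the arrays with high Lyve1 −0.10, and among those with low Lyve1 −0.02. Leaving out one array at a time gave 0.05 (without wild-type replicate 4) to 0.76 (without wild-type replicate 2). The second probe set, at 4.42 or more in the arrays with high Lyve1 and 3.41 to 4.34 in the others, differed by 0.49 (SE 0.32) between the genotypes. Nearest to Igf2r in pattern was Airn (r = 0.919), the imprinted RNA transcribed antisense across Igf2r, which read 3.30, 3.98 and 2.66 in TFIIA nc/nc and 4.39, 3.87, 2.12 and 2.48 in wild type. Evi5 (0.892) and Col5a2 (0.889) followed.

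Grb10, an adaptor that dampens insulin and IGF receptor signalling, was bright on every array. It read 8.57, 8.86 and 8.17 in TFIIA nc/nc and 8.29, 8.39, 7.99 and 8.07 in wild type, a span of 0.87 over all arrays. The difference was 0.35 (SE 0.19; limma, Benjamini-Hochberg adjusted p = 0.984), and it was 0.43 among the arrays with high Lyve1 and 0.02 among those with low Lyve1. Leaving out one array at a time gave 0.19 (without TFIIA nc/nc replicate 2) to 0.53 (without TFIIA nc/nc replicate 3). The other Grb10 probe sets were dim, at 2.48 to 3.45, and differed by 0.34 and 0.19.

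Peg3, a paternally expressed zinc finger protein linked to cell survival, was measured higher in TFIIA nc/nc without passing the test. Its brightest probe set read 6.31, 6.57 and 5.79 in TFIIA nc/nc and 5.98, 4.78, 4.22 and 5.31 in wild type. Wild-type replicate 1, with high Lyve1, lay above TFIIA nc/nc replicate 3, and the other wild-type arrays lay below every TFIIA nc/nc array. The means were 6.23 ± 0.40 (SD, n = 3) and 5.07 ± 0.75 (SD, n = 4), a difference of 1.15 (SE 0.38; unadjusted limma p = 0.0133, Benjamini-Hochberg adjusted p = 0.984; exact permutation p = 0.0857).

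The Peg3 difference was 0.77 (SE 0.29) after adjustment for the endothelial mean. It was 0.46 among the arrays with high Lyve1 and 1.02 among those with low Lyve1, where TFIIA nc/nc replicate 3 lay above all 3 wild-type arrays. The probe set second in level differed by 0.48 over all arrays, 0.01 with high Lyve1 and 0.30 with low Lyve1. The dimmest Peg3 probe set differed by 0.29. Nearest in pattern were Hpgd (r = 0.949), Cd302 (0.937) and Lgmn, a lysosomal protease (0.934). Lgmn was also one of the 11 macrophage genes. Of these, 10 had a higher mean in TFIIA nc/nc. An unadjusted limma p under 0.05 was met by 3 of the 10, against 2.02% of all genes, and none passed after adjustment. The mean of the 11 was 3.99, 4.83 and 5.10 in TFIIA nc/nc and 4.46, 4.28, 3.04 and 3.55 in wild type, highest in TFIIA nc/nc replicate 3. The genes of the list did not share one order of arrays. Mrc1 followed the split by Lyve1, at 8.62 to 9.03 against 3.19 to 4.45. In TFIIA nc/nc replicate 1, C1qb (3.43) and Cd68 (2.30) were the lowest of all arrays, whereas Lgmn (5.43) lay above every wild-type array. The part of macrophage transcripts in the Peg3 difference was not tested.

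Ndn, or necdin, a paternally expressed growth suppressor of the MAGE family, had 5 probe sets with mean levels of 6.66 to 8.05 and 3 dim ones. The brightest read 7.82, 7.80 and 8.08 in TFIIA nc/nc and 7.69, 8.08, 8.43 and 8.47 in wild type. The lowest 3 values were those of the arrays with high Lyve1, and they lay 0.26 log2 units below the others; 3 of the 4 other bright probe sets had a like step of 0.11 to 0.21. This ran opposite to Mest and Plagl1. Of the 10 stem cell genes 5, Kit, Procr, Hlf, Hoxa9 and Mllt3, were also wholly lower in those arrays, against 4.87% of all genes. Slamf1, Meis1, Gata2, Tal1 and Mecom overlapped. The difference between the genotypes was −0.27 (SE 0.21; limma, Benjamini-Hochberg adjusted p = 0.984) and −0.08 after adjustment for the endothelial mean. It was 0.13 among the arrays with high Lyve1 and −0.25 among those with low Lyve1, and −0.16 without wild-type replicate 4 and −0.43 without wild-type replicate 1.

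Dlk1, a paternally expressed transmembrane ligand that is abundant on hepatoblasts, was modest in level. It read 5.26, 4.27 and 4.49 in TFIIA nc/nc and 4.14, 4.66, 5.68 and 5.84 in wild type. The highest values were in wild-type replicates 3 and 4, which have low Lyve1 and low Alb, at 1.84 and 2.52. The mean of the hepatoblast list was 3.12 and 3.25 in them, but Krt18 of that list was high there, at 6.57 and 6.50. The part of hepatoblast transcripts in the Dlk1 values was not tested. The difference was −0.41 (SE 0.42; limma, Benjamini-Hochberg adjusted p = 0.984), and it was 0.63 among the arrays with high Lyve1 and −0.90 among those with low Lyve1. Without the single-embryo samples it was −1.09, without wild-type replicate 4 −0.15 and without wild-type replicate 1 −0.72.

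**Figure D3:**
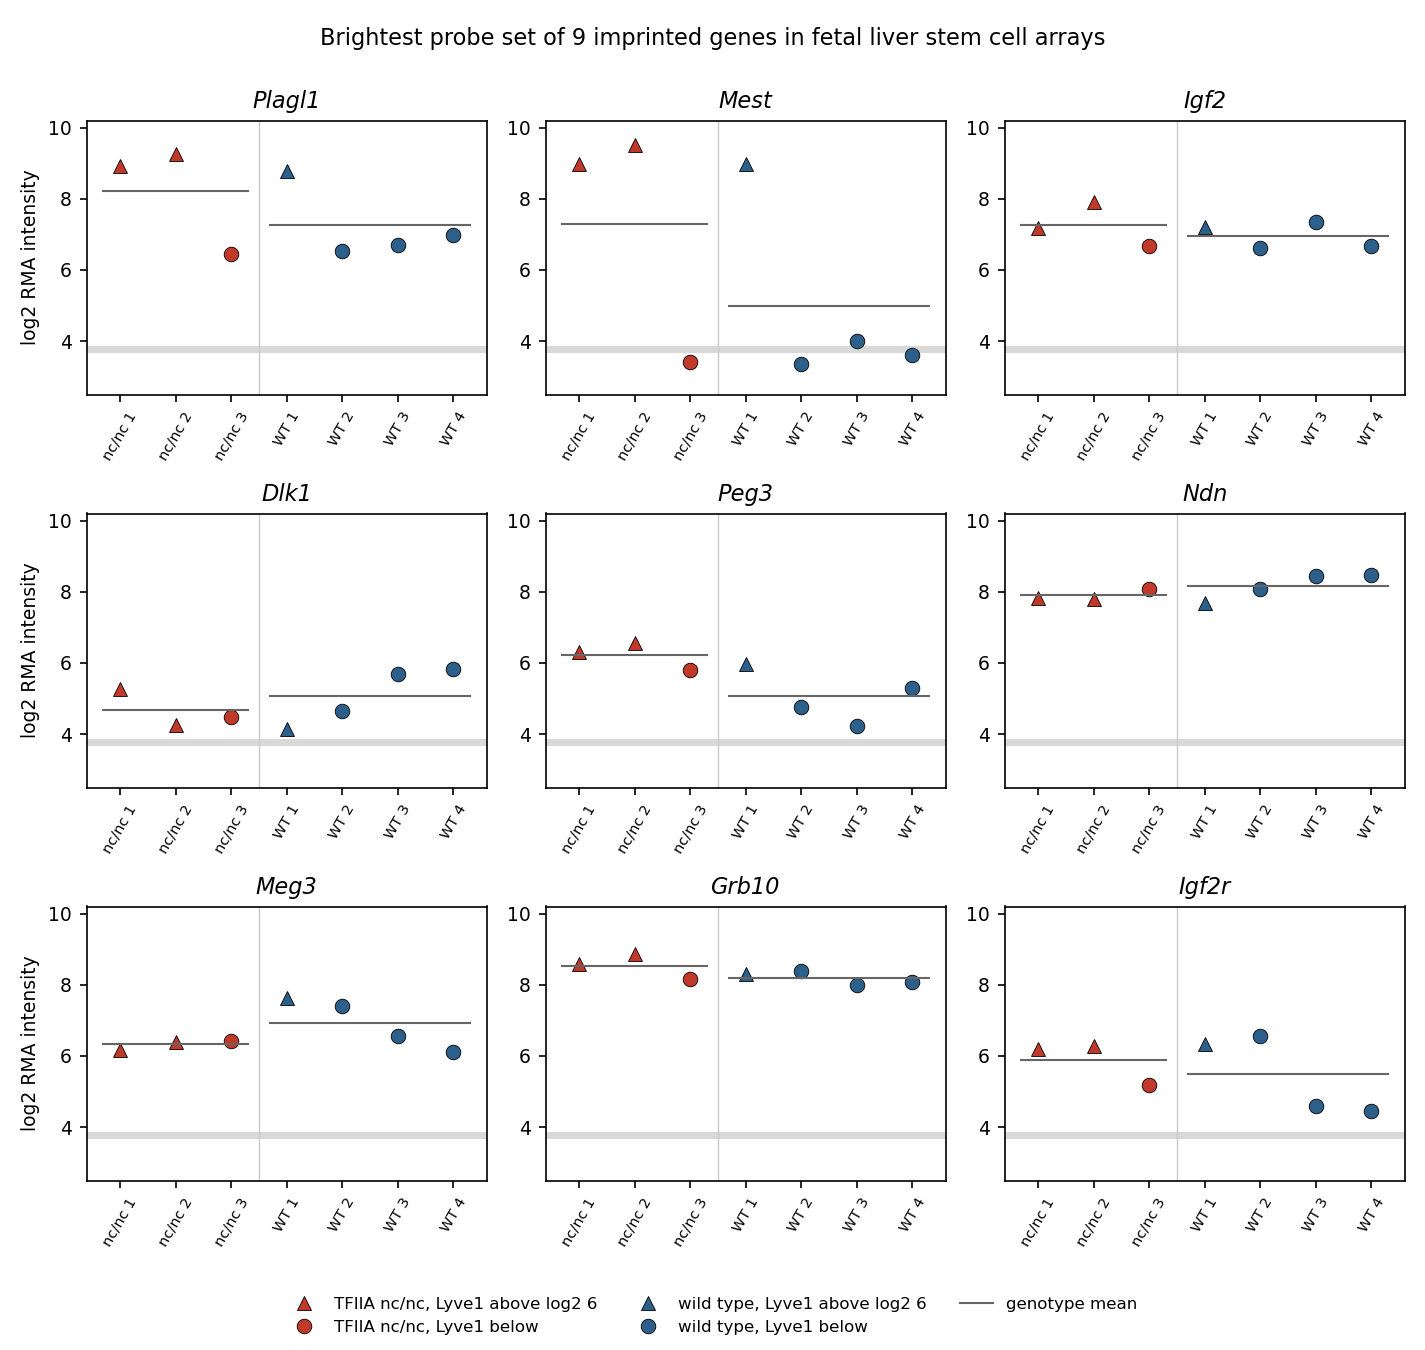
Log2 level of the brightest probe set of 9 imprinted genes on each array, red for TFIIA nc/nc (n = 3) and blue for wild type (n = 4), triangles for arrays with Lyve1 above log2 6, lines for genotype means and a grey band for the range of array medians (3.69 to 3.82). Mest and Plagl1 follow the triangles, while Grb10 and Ndn span 0.87 and 0.79 log2 units over the 7 arrays.

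Meg3, the maternally expressed long noncoding RNA of the Dlk1 locus, was measured lower in TFIIA nc/nc on part of its probe sets. The probe set second in level read 5.20, 5.24 and 5.17 in TFIIA nc/nc and 6.07, 6.37, 6.04 and 5.29 in wild type. All TFIIA nc/nc arrays lay below all wild-type arrays, though wild-type replicate 4 lay only just above them. The means were 5.20 ± 0.03 (SD, n = 3) and 5.94 ± 0.46 (SD, n = 4), a difference of −0.74 (SE 0.24; unadjusted limma p = 0.0120, Benjamini-Hochberg adjusted p = 0.984; exact permutation p = 0.0571).

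The brightest Meg3 probe set read 6.16, 6.39 and 6.42 in TFIIA nc/nc and 7.62, 7.42, 6.56 and 6.10 in wild type. Its high values were those of wild-type replicates 1 and 2, the single embryos, and the groups overlapped. The difference was −0.60 (SE 0.34; limma, Benjamini-Hochberg adjusted p = 0.984), without wild-type replicate 1 −0.37, and without both single-embryo samples −0.01. The probe set second in level then differed by −0.46. Number of embryos and genotype are partly confounded here, since single embryos occur in wild type alone.

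The dimmest Meg3 probe set differed by −0.47 (SE 0.17; unadjusted limma p = 0.0235; exact permutation p = 0.0857), at 1.89 to 2.36 against 2.34 to 2.80. The remaining ones differed by −0.05 and −0.04. For the probe set second in level the difference was −0.79 (SE 0.26) after adjustment for the endothelial mean, −0.85 among the arrays with high Lyve1 and −0.73 among those with low Lyve1. Rian, another maternally expressed RNA of that locus, chosen after its values were seen, read 2.69, 2.42 and 2.59 in TFIIA nc/nc. In wild type it read 4.37, 3.03, 2.42 and 2.71. It was highest in wild-type replicate 1, and every other value, that of wild-type replicate 2 included, lay below the lowest array median of 3.69.

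**Figure D4:**
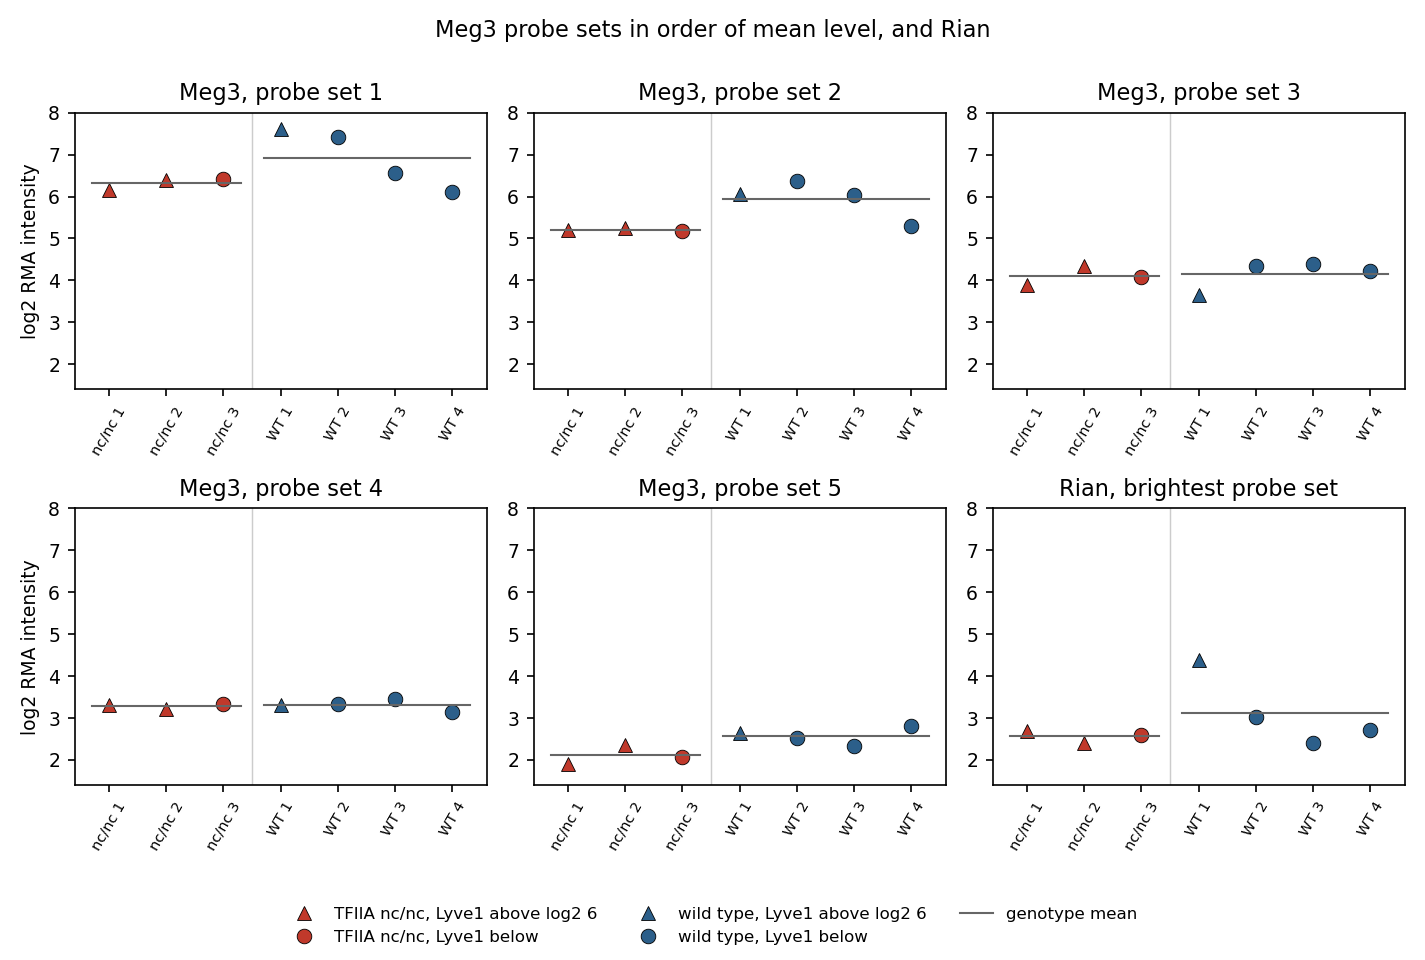
Log2 levels of the 5 Meg3 probe sets, in order of mean level, and of Rian on each array (red TFIIA nc/nc, n = 3; blue wild type, n = 4; triangles for Lyve1 above log2 6; lines for genotype means). Only the second probe set separates the genotypes, by −0.74 in the mean, and Rian is highest in wild-type replicate 1 at 4.37.

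Dim members added little. The 10 member probe sets with a mean at or below the lowest array median read 1.47 to 3.47 on all arrays and differed by −0.47 to 0.34 between the genotypes. Signal this low cannot be told from background without detection calls.

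Other imprinted genes were read from a list of 56, of which 42 had a probe set of their own, each represented by its brightest. None passed (limma over all probe sets, Benjamini-Hochberg; 0 higher and 0 lower), 2 had an unadjusted p under 0.05, both higher, and the median difference was 0.00 with 20 higher and 22 lower, against 4.43% of all 12393 genes at that unadjusted p (2.02% higher and 2.41% lower). The smallest p values belonged to Mcts2 (1.00, SE 0.34), a translation factor copy within H13, Ddc (0.71, SE 0.30), which makes dopamine and serotonin, and Cdkn1c (0.51, SE 0.26), the maternally expressed cyclin-dependent kinase inhibitor p57. Cdkn1c read 7.32, 7.52 and 6.99 in TFIIA nc/nc and 7.28, 7.06, 6.41 and 6.33 in wild type. In the 3 arrays with high Lyve1, 4 of the 42 were wholly higher and 3 wholly lower, against 5.55% and 4.87% of genes, and 2 were higher by at least 1 log2 unit, against 0.888%. These 2, chosen after their values were seen, were Asb4, at 4.58 to 4.73 against 2.15 to 3.00, and Tfpi2, at 3.73 to 4.01 against 2.38 to 2.71.

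Of 30 genes of the IGF and insulin pathway 27 were measured and none passed (limma, Benjamini-Hochberg over all probe sets), with a median difference of 0.10. At an unadjusted limma p under 0.05, 1 was higher and 1 lower, against 2.02% and 2.41% of all genes. Those of smallest p were Pdpk1, the kinase that activates AKT (0.73, SE 0.25), Igfbp5, an IGF binding protein (−0.61, SE 0.22), and Foxo3, a transcription factor that insulin signalling inhibits (−0.31, SE 0.16). The IGF1 receptor, Igf1r, through which IGF2 also signals, read 4.63, 4.97 and 4.50 in TFIIA nc/nc and 4.20, 4.75, 5.02 and 5.34 in wild type. Igfbp7, a binding protein of vessel walls, was the single pathway gene higher by at least 1 log2 unit in the arrays with high Lyve1, at 5.88 to 6.08 against 2.64 to 3.25. It and Igf1r were named after their values were seen.

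Of 18 genes that keep or erase imprints 13 were measured, none passed and none had an unadjusted limma p under 0.05, with 7 higher, 6 lower and a median difference of 0.00. Dppa3, which guards maternal methylation in the egg, differed by 0.31 (SE 0.15) at a dim 1.95 to 2.56, Zfp445, a zinc finger protein that binds imprinting control regions, by 0.47 (SE 0.34), and the demethylating enzyme Tet1 by −0.33 (SE 0.29). Dnmt1, the maintenance methyltransferase, read 9.57 to 9.71 in TFIIA nc/nc and 9.42 to 9.84 in wild type. It was named after its values were seen.

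**Figure D5:**
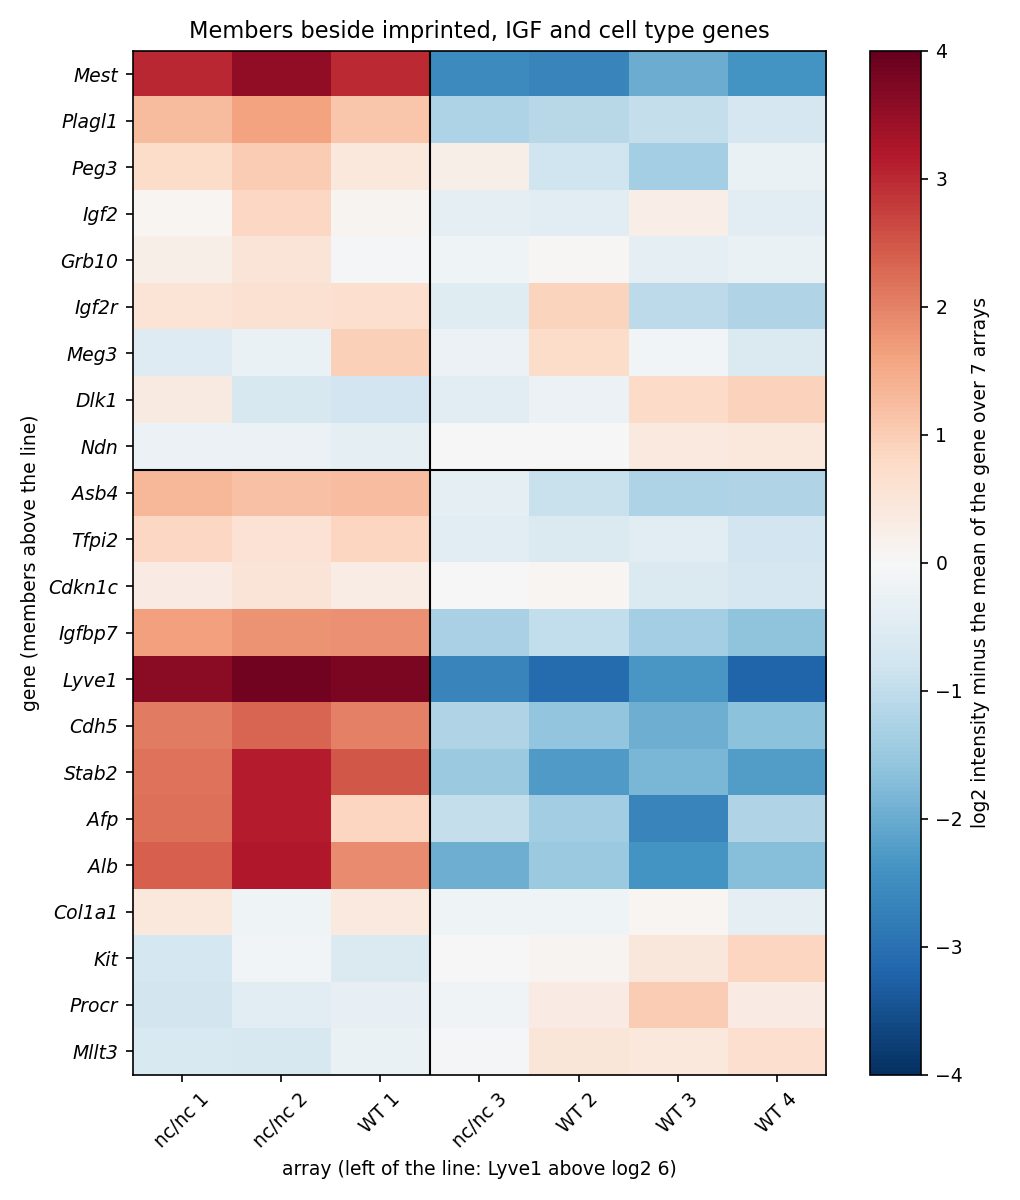
Log2 levels of the 9 measured members (above the line) and of 13 other genes chosen after their values were seen, each minus its mean over the 7 arrays (colour, from −4 to 4), with the 3 arrays of Lyve1 above log2 6 on the left. Mest and Plagl1 share the pattern of Igfbp7, Lyve1, Cdh5 and Alb, Ndn that of Kit, Procr and Mllt3, and Meg3 neither. Not shown are the stem cell genes that overlapped (Slamf1, Meis1, Gata2, Tal1 and Mecom) and Krt18, a hepatoblast gene wholly lower in the 3 arrays.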

How the data were processed

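The authors deposited 1 value per probe set and array, an RMA intensity from RMA; per the submitters' processing notes the software was Affymetrix Expression Console, whose version the sources used here do not give. Per the labels' protocols, RNA was amplified from the 3' end before hybridisation. The deposited intensities were on a linear scale, and log2 was taken with no pseudocount. RMA returns a value for every probe set and understates differences between dim ones. Array medians were 3.69 to 3.82, and pairwise correlations 0.966 to 0.991. The number of arrays, 7, limits the precision, and no detection calls or scan dates were used, so a batch could not be examined.

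Of 22690 probe sets, 64 controls were left out. The platform annotation gave a single symbol to 20380 of the other 22626, several to 691 and none to 1555. Symbols were updated by Entrez identifier through RefSeq of GRCm38.p6 (12369 of 12393 genes matched). Members were the probe sets naming one of the 10 genes alone, and genes of the other lists were read from the brightest probe set naming them.

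Genotype differences were fitted in limma 3.58.1 (lmFit, eBayes; R 4.3.3) on all 7 arrays without covariates, with 2-sided p-values adjusted by Benjamini-Hochberg over 22626 probe sets and a threshold of 0.05. The exact permutation test was 2-sided. Arrays were set out by Lyve1 (brightest probe set) above or below log2 6, as values without a test. All members are named, with every probe set. In each other list up to 3 genes of smallest p are named, and, for members spanning at least 2 log2 units, the 3 genes of highest Pearson r. The members and lists were chosen with earlier results of these data known. On 10 simulated data sets of 22626 probe sets with 200 changed, the fit recovered 65.1% of changes of 1 on the log2 scale and 98.7% of changes of 2, with 8.9 false calls per set. The simulated noise was independent between probe sets, without the difference in endothelial transcripts that the real arrays share. Recovery was averaged over all changed probe sets, so it does not give the power for members of wide spread, such as Mest (SE 1.67). Alternatives covered the choice and filtering of probe sets, normalization, pseudocount, moderation, array weights, embryo number, endothelial transcripts, replicate number and leaving out arrays. Plots used matplotlib 3.10.9 in Python 3.11.15.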

Additional observations from a re-analysis of the deposited data

Results flagged for a closer look

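In 3 member probe sets wild-type replicate 1 stood apart from the other wild-type arrays by Dixon's criterion, which chance meets in about 1 of 20 groups; 27 probe sets were examined. Mest read 8.97 there against 3.34 to 4.00 in the other wild-type arrays. The Peg3 probe set second in level read 4.80 against 3.85 to 4.00, and the dim Igf2 probe set 2.97 against 1.84 to 2.03. Wild-type replicate 1 is the wild-type array with high Lyve1, at 9.73, and is a single embryo. The part of either in these values was not tested, apart from the values by Lyve1 given with the results.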

How the results depend on the processing

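No member probe set passed in any of the 21 alternative settings (limma, Benjamini-Hochberg), with 0.218 as the lowest adjusted p, for Igf2r with pooled samples only. Over all probe sets the count of calls was 1 at the settings of the report. It was 0 with a filter of log2 above 6 on at least 3 arrays and 14 with pooled samples only. Leaving out each array gave 1 to 2, with 2 without wild-type replicate 3. The fits by Lyve1 hold 1 wild-type array above log2 6 and 1 TFIIA nc/nc array at or below it, so their counts are not given. Of 11 differences followed, the brightest probe set of each gene and the 2 other Meg3 probe sets with an unadjusted p under 0.05, 5 kept their sign in every setting that could be run. The sign turned with the arrays of Lyve1 at or below log2 6 for Igf2 (−0.20), Plagl1 (−0.31), Mest (−0.22) and Igf2r (−0.019), with the arrays above log2 6 for Dlk1 (0.63), Ndn (0.13) and Igf2r (−0.10), and on adjustment for the endothelial mean for Plagl1 (−0.014) and Igf2r (−0.045). Leaving out each array gave −0.033 to 0.58 for Igf2, negative without TFIIA nc/nc replicate 2. The cause of these turns was not tested, and none of the differences was called. With the replicate number as a block 1 probe set and 0 members were called. Same-numbered arrays correlated in their deviations from the genotype means at 0.36, −0.15 and 0.05. The arrays also differ by Lyve1, so these values cannot tell whether same-numbered samples were paired. The filter on the median level left 17 members and that on log2 6 left 12. Probe sets near the array medians are limited by background signal.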

Other observations

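The probe set annotated to both H19 and Mir675, which lie at one locus, was kept out of all counts above. It was bright on every array, at 8.69, 9.07 and 7.69 in TFIIA nc/nc and 9.26, 8.65, 8.99 and 8.84 in wild type, with TFIIA nc/nc replicate 3 the lowest. The genotype difference was −0.45 (SE 0.30; limma, Benjamini-Hochberg adjusted p = 0.984), and −0.78 (SE 0.21; adjusted p = 0.956) after adjustment for the endothelial mean. The arrays of high and low Lyve1 overlapped. The arrays do not measure the mature microRNA, and the 2 annotations of this probe set were not separated.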
